A study of Homo sapiens with 28 samples.

Results

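The integrins and the focal adhesion adaptors were followed as a set of 38 listed genes, 21 integrin subunits and 17 adaptors, found by symbol in all 28 libraries. Of these, 31 genes (17 integrins and 14 adaptors) passed the filter on low counts, out of 14220 genes tested in all. The other 7 genes, ITGA8, ITGA4, ITGA9, ITGB2, FERMT1, LIMS2 and TGFB1I1, had at most 5 reads in any library. Integrins are cell surface receptors in which an alpha and a beta subunit pair, and the pair decides which matrix protein is bound. Inside the cell the beta tail binds talins and kindlins, and paxillin, vinculin, zyxin and tensins tie the cluster to actin. The kinase FAK and the adaptor ILK sit in the same plaque. In carcinoma cells these plaques carry adhesion, spreading and migration on collagen, laminin and fibronectin.

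The cells were AN3CA, a human line from an endometrial carcinoma, and all libraries were of polyadenylated RNA from cells with no drug treatment. The 12 constructs carried ARID1A or ARID1B, alternative subunits of the canonical BAF chromatin remodelling complex, and were compared with an empty vector. For ARID1A there were 7 constructs: WT (wild type), CBR and delIDR1, labelled as truncations, DBDmut with a mutated ARID domain, a hybrid with a disordered region of DDX4, the scramble AQGscram and the construct 42YS. Labels of 42YS write the letters and number in more than 1 order, so the change it carries is not described further. The 5 ARID1B constructs were WT, M2 (S320_G327del), A457_G461del, Block13del and Block9del, and all 4 mutants are labelled as deletions. Each construct had 2 libraries and the empty vector had 4. Whether the libraries of a group are separate cultures is not stated, and p-values cover only the variation among the libraries at hand, possibly technical in part. The labels also do not name the vector, the promoter or clones.

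Gene reads numbered 16.6 to 27.9 M per library, with a median of 22.0 M. By the share of reads on the strand opposite the gene they fell into 3 sets: WT, CBR, delIDR1 and DBDmut of ARID1A with empty vector replicates 1 and 2 (84.5 to 87.8%), the DDX4 hybrid, ARID1B WT and M2 with empty vector replicates 3 and 4 (98.1 to 98.6%), and the 5 other constructs with no empty vector library of their own (96.7 to 97.9%). Among the integrin and adaptor genes tested, 6 of 31 were higher and 12 were lower in the second empty vector pair (replicates 3 and 4) than in the first (replicates 1 and 2), from ITGA11 (log2 fold change -1.81) to TLN2 (0.90), and of all genes 28.8% were higher and 29.7% lower. For the 31 genes, counts called against all 4 empty vector libraries are therefore given with counts against the construct's own pair. That is the pair of the same strand set. For single genes the text gives the own-pair log2 fold change in some cases only. Where it is missing, the value mixes both empty vector pairs, and its size against the own pair can differ. In ARID1A WT this holds for ITGA11, ITGA7, ITGAV, ITGB8, ZYX, TLN2, PXN and PARVA, all called between the empty vector pairs. For the third set the batch and the construct cannot be told apart. The 2 AQGscram libraries differed from each other more than any other pair (chi-square per degree of freedom 28.8, against 1.18 to 4.76 for the others). ARID1A RNA averaged 733 CPM (counts per M reads on genes, with no correction for gene length) in WT, 1017 in CBR, 589 in delIDR1, 665 in DBDmut, 523 in the DDX4 hybrid, 374 in 42YS and 289 in the empty vector, while AQGscram had 284 and 210. ARID1B RNA averaged 3597 CPM in ARID1B WT, 4250 in M2, 2236 in A457_G461del, 883 in Block13del, 344 in Block9del and 98.03 in the empty vector. Of the 12 endometrial carcinoma markers, ESR1, PGR, SOX17 and FOXA2 had at most 2 reads in all libraries together, and EPCAM stayed at or below 0.809 CPM, whereas KRT18 (up to 83.2 CPM) and HOXA10 (up to 22.7 CPM) were present. PTPRC, which marks leukocytes, had at most 0.0453 CPM in any library. Of the 9 fibroblast markers, DCN, LUM, THY1 and FAP had at most 0.0880 CPM, while COL1A2 reached 3721 CPM, COL3A1 562 CPM, COL1A1 90.2 CPM, PDGFRB 35.2 CPM and PDGFRA 3.46 CPM. Their sum was 4240.3 to 4384 CPM in ARID1A WT and 2228 to 4096 CPM in the other constructs, against 2481 to 3379 CPM in the empty vector. Its part in the results below was not tested. The summed leukocyte list, mostly CD68, was 15.1 to 16.9 CPM in ARID1A WT, against 1.68 to 2.94 CPM in the empty vector. Its part was not tested either.

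Promoter windows of 3 of the genes, each with at least 1 motif to mark, are shown first as examples: ITGA5 codes for the alpha subunit of the classical fibronectin receptor, ITGB6 for a beta subunit that pairs with ITGAV, and VCL for vinculin, which links talin to actin. ITGB6 RNA stayed at or below 0.528 CPM in every library. Each window runs from 250 bases before to 50 bases after an annotated start in RefSeq (GRCh38.p14, while the counts were made on hg19) and is read on the strand of the gene. Capitals mark the motif named with it.
ITGA5, chr12:54419217-54419516, minus strand, with an AP-1 motif at -6 and a TEAD motif at -82 from the start: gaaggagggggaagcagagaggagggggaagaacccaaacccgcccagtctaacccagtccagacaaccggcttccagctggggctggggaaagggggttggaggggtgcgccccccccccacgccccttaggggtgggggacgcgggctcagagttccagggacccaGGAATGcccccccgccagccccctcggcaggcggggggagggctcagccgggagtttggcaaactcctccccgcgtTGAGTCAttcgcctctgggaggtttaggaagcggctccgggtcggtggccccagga
ITGB6, chr2:160200223-160200522, minus strand, with an SRF CArG box at -60: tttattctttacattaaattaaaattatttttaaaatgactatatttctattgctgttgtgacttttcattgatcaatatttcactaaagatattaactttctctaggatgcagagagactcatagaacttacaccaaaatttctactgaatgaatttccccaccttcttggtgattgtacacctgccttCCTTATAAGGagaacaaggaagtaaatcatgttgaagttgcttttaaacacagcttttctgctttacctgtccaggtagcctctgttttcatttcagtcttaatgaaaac
VCL, chr10:73997866-73998165, plus strand, with a TEAD motif at -171: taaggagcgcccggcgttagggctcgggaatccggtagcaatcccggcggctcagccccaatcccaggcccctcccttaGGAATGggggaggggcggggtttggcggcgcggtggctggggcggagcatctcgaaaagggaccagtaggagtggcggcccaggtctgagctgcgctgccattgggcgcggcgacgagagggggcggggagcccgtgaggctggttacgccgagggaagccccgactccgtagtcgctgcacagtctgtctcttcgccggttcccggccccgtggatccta

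RefSeq windows matched 29 of the 38 genes by symbol, with 54 windows in all. The AP-1 letters TGANTCA, searched on both strands, stood in 3 of the 54 windows (ITGA5, BCAR1 and LIMS1) and in 7.709% of all 35116 windows. The TEAD letters GGAATG stood in 7 of 54 against 14.033%, the SRF CArG box in 2 of 54 against 1.293%, and the SP1 letters GGGCGG in 30 of 54 against 44.954%. Matches of different motifs were counted separately where they overlapped, and a match describes the letters only.

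ARID1A WT had more RNA of most integrins and adaptors than the empty vector, among them ITGA5 and ITGB5. Of the 31 genes tested, 22 were higher and 0 were lower at an adjusted p under 0.05 (edgeR quasi-likelihood test with Benjamini-Hochberg adjustment over all genes, as for every adjusted p below). Of all 14220 genes, 21.1% were higher and 23.5% lower. At an unadjusted p under 0.05, 0 were lower too, and DESeq2 called 22 higher and 0 lower. The 22 were 12 of 17 integrins and 10 of 14 adaptors, and the median log2 fold change over the 31 genes was 0.96, against -0.06 over all genes. In the other comparisons below the median over all genes lay between -0.07 and 0.02. Against the WT libraries' own empty vector pair 21 were higher and 1, ITGAE, was lower (29.9% and 30.8% of all genes). Without any 1 of the libraries, 19 of the 22 calls remained, and those of ITGA10, PTK2 and PARVA did not. ITGB3, ITGB6, TNS1 and ITGA1 passed the low-count filter only through libraries other than the empty vector. Their values against the empty vector, here and below, describe them and are no test. Of the 27 other genes 19 were higher and 0 lower, with a median log2 fold change of 0.69. For the other constructs, counts and medians over these 27 genes are given after those over the 31. Values after ± are standard errors for log2 fold changes, which are construct over empty vector or over the construct named last. Where libraries of a construct are said to lie above or below those of another group, the share of all genes doing so is not given. Such statements only describe the values. Fewer cells of a kind and less RNA per cell cannot be told apart in bulk libraries.

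**Figure D1:**
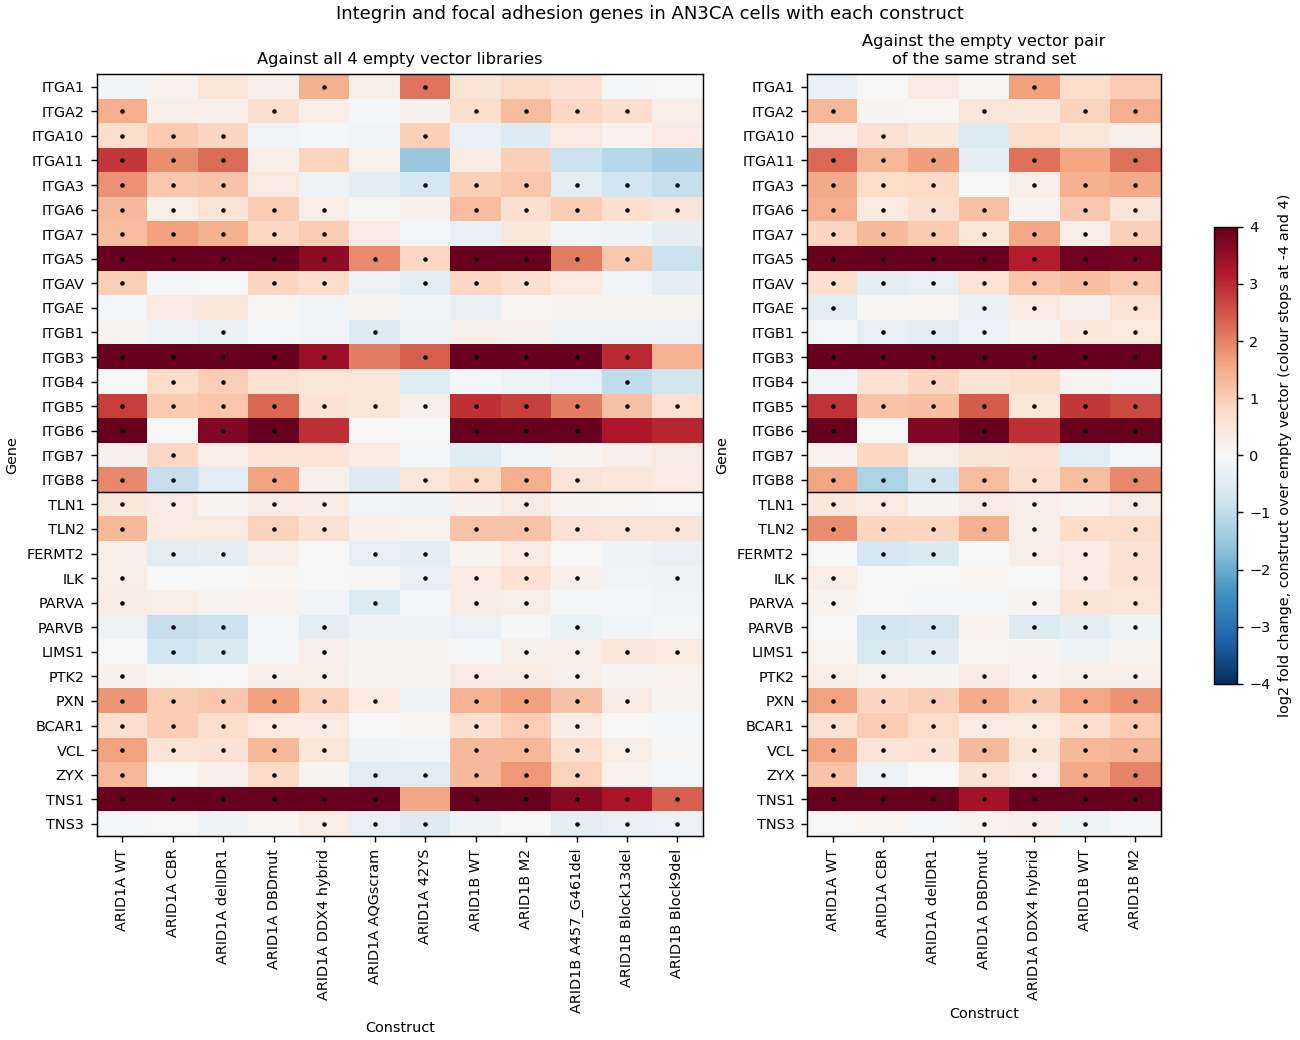
Log2 fold change of the 31 tested genes (rows, integrins above the line and adaptors below it) in 12 constructs against all 4 empty vector libraries (left) and in 7 constructs against the empty vector pair of the same strand set (right). Dots mark an adjusted p under 0.05 and the colour scale stops at 4 either way. ITGB5 has a dot in all 12 columns on the left, of which the one in 42YS (0.19) was not called against empty vector replicates 3 and 4 alone (0.08, adjusted p = 0.251), and the ARID1A WT column has 22 dots, all of genes that were higher.

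Among collagen receptor subunits, ITGA11 RNA was 2.58 and 2.67 CPM in ARID1A WT, against 0.453, 0.629, 0.262 and 0.0557 CPM in the empty vector (log2 fold change 2.81 ± 0.38, adjusted p = 5.7e-06). ITGA2, whose product binds collagen and laminin, was at 8.14 and 7.03 CPM in WT, against 3.40, 2.61, 2.68 and 2.17 CPM in the empty vector (log2 fold change 1.47 ± 0.15, adjusted p = 1.2e-07). Both genes were higher in each WT library than in any empty vector library. ITGA10 was at 1.70 and 2.39 CPM in WT, against 1.86, 1.57, 0.850 and 0.669 CPM in the empty vector, and WT replicate 1 lay inside the empty vector range. Its log2 fold change of 0.69 ± 0.27 (adjusted p = 0.0433) became 0.28 against the own pair (adjusted p = 0.293). ITGA1, at 0.176 and 0.0937 CPM in WT and 0.136, 0.180, 0.196 and 0.0557 CPM in the empty vector, stayed under the low-count limit of 0.454 CPM in both.

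All 3 laminin receptor alpha subunits rose. ITGA3 was at 113 and 111 CPM in WT, against 39.7, 39.3, 24.8 and 20.8 CPM in the empty vector (log2 fold change 1.84 ± 0.16, adjusted p = 8.1e-09, and 1.51 against the own pair). ITGA6 was at 404 and 389 CPM in WT, against 143, 146, 173 and 180.0 CPM in the empty vector (log2 fold change 1.30 ± 0.081, adjusted p = 7.5e-11). ITGA7, best known from muscle, was at 71.0 and 65.6 CPM in WT, against 40.1, 34.6, 20.9 and 19.6 CPM in the empty vector (log2 fold change 1.23 ± 0.18, adjusted p = 1.4e-05). WT and empty vector values did not overlap for any of these 3 genes.

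ITGA5 was at 28.7 and 29.0 CPM in WT, against 0.453, 0.539, 0.850 and 0.948 CPM in the empty vector, a log2 fold change of 5.41 ± 0.16 (adjusted p = 6.7e-16). Against the own pair it was 5.84. ITGAV, the alpha partner of ITGB3, ITGB5, ITGB6 and ITGB8, was at 688 and 671 CPM in WT, against 442, 415, 273 and 269 CPM in the empty vector (log2 fold change 0.96 ± 0.16, adjusted p = 5.0e-05). Both were higher in each WT library than in any empty vector library.

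ITGB3, ITGB5, ITGB6 and ITGB8, which pair with ITGAV as ITGB1 also can, rose. ITGB5, part of a vitronectin receptor, was at 363 and 359 CPM in WT, against 47.5, 49.8, 57.0 and 57.3 CPM in the empty vector (log2 fold change 2.77 ± 0.062, adjusted p = 9.3e-18). ITGB8, whose product helps activate latent TGF-beta, was at 70.6 and 66.8 CPM in WT, against 22.2, 23.7, 12.2 and 13.7 CPM in the empty vector (log2 fold change 1.92 ± 0.17, adjusted p = 1.9e-08). The other two of these subunits were at or near 0 in the empty vector. ITGB3 was at 8.14 and 8.57 CPM in WT, against 0, 0.135, 0.0654 and 0 CPM in the empty vector. The ratio of normalised reads against the own pair was 124 (95% counting interval 42.0 to 603). ITGB6, which also acts on latent TGF-beta, had 19 reads over both WT libraries (0.527 and 0.469 CPM) and 0 reads in the 4 empty vector libraries, at least 12.8-fold higher against a floor of 3 reads over the group. Against the own pair ITGB6 was at least 7.30-fold higher by the same floor. Such intervals and floors cover counting error only. ITGB1, the partner of most alpha subunits, was at 951 and 943 CPM in WT and 1004, 1006, 764 and 766 CPM in the empty vector (log2 fold change 0.10 ± 0.10, adjusted p = 0.463). ITGB4 and ITGB7 were not called.

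Among adaptors of the actin link, TNS1, VCL and ZYX rose. TNS1, which codes for a tensin, was at 5.44 and 5.76 CPM in WT, against 0.136, 0, 0 and 0 CPM in the empty vector, a read ratio of 145 (95% counting interval 49.1 to 710.0). VCL was at 919 and 947 CPM in WT, against 306, 317, 305 and 295 CPM in the empty vector (log2 fold change 1.61 ± 0.061, adjusted p = 3.4e-14). ZYX, which codes for zyxin of stress fibres and adhesions, was at 490.1 and 515 CPM in WT, against 226, 234, 171 and 169.7 CPM in the empty vector (log2 fold change 1.33 ± 0.10, adjusted p = 2.5e-09). All 3 were higher in every WT library than in any empty vector library, while TNS3 was not called (log2 fold change -0.08 ± 0.058, adjusted p = 0.297). The scaffold gene PXN (paxillin) was at 191 and 198 CPM in WT, against 62.7, 63.9, 50.7 and 50.6 CPM in the empty vector (log2 fold change 1.77 ± 0.081, adjusted p = 6.8e-13). BCAR1, which codes for p130Cas, was at 78.3 and 77.5 CPM in WT, against 51.6, 49.8, 50.7 and 49.2 CPM in the empty vector (log2 fold change 0.63 ± 0.061, adjusted p = 6.4e-08). TLN2, one of the talins, was at 83.3 and 81.2 CPM in WT, against 22.2, 23.6, 42.2 and 43.2 CPM in the empty vector (log2 fold change 1.34 ± 0.19, adjusted p = 7.1e-06). The other rises had log2 fold changes of 0.41 (TLN1), 0.30 (PARVA), 0.27 (ILK) and 0.18 (PTK2, which codes for FAK).

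CBR and delIDR1 had less RNA of ITGB3, ITGB5, ITGB8, VCL and ZYX than WT, while ITGA5 was not called against WT in either. In DBDmut ITGA5, ITGA3 and TNS1 were lower than in WT. Compared with WT, 2 of the 31 genes were higher and 18 lower in CBR (all genes 22.2% higher and 25.3% lower), with a median log2 fold change of -0.72. In delIDR1, 1 was higher and 19 lower than in WT (17.4% and 22.7% of all genes), with a median of -0.56. In DBDmut 0 were higher and 10 lower than in WT (0.999% and 4.62% of all genes), with a median of -0.22. At an unadjusted p under 0.05, 2 were higher in DBDmut, and DESeq2 called 0 higher and 12 lower. The 4 groups lie in the same strand set. Leaving out 1 library at a time left 17 of 20 calls for CBR, 16 of 20 for delIDR1 and 5 of 10 for DBDmut, whose number of calls fell to 5 without DBDmut replicate 1 and to 6 without any 1 of the other 3 libraries. For DBDmut the number was 18 when the fit kept both empty vector pairs apart. A fit of only DBDmut and WT called 19, and 2723 of all genes.

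**Figure D2:**
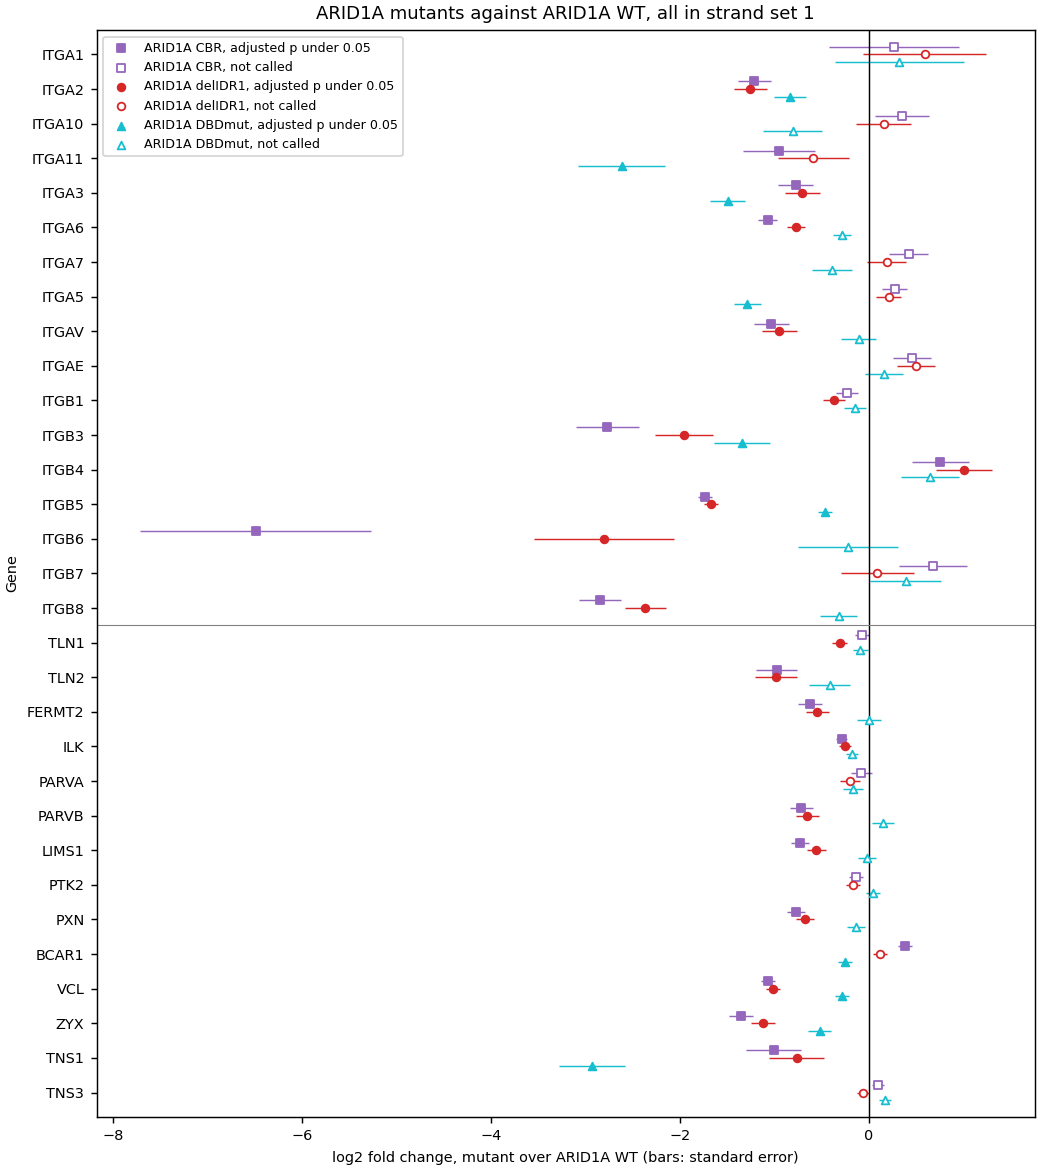
Log2 fold change over ARID1A WT (horizontal axis, with standard error bars) of the tested genes in CBR, delIDR1 and DBDmut. Filled points have an adjusted p under 0.05. ITGA5 lies at 0.27 in CBR and 0.21 in delIDR1 with open points and at -1.29 in DBDmut with a filled point, while ITGB8 lies at -2.85, -2.37 and -0.32.

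ITGA5 was at 34.8 and 34.9 CPM in CBR, 31.8 and 34.9 CPM in delIDR1 and 12.1 and 11.5 CPM in DBDmut, against 28.7 and 29.0 CPM in WT. The log2 fold change over WT was 0.27 ± 0.13 in CBR (95% interval -0.01 to 0.55) and 0.21 ± 0.13 in delIDR1 (-0.07 to 0.49), neither called, and -1.29 ± 0.14 in DBDmut (adjusted p = 5.0e-06). Every CBR and delIDR1 library lay above both WT libraries, and both DBDmut libraries lay below them. ITGA7 was at 96.2 and 86.6 CPM in CBR, 75.5 and 80.1 CPM in delIDR1 and 55.3 and 48.6 CPM in DBDmut, against 71.0 and 65.6 CPM in WT, and none of the 3 differences was called (log2 fold change 0.42 ± 0.21, 0.19 ± 0.21 and -0.39 ± 0.21). ITGA3 fell in all 3, to 67.7 and 63.5 CPM in CBR, 67.7 and 70.2 CPM in delIDR1 and 41.0 and 38.7 CPM in DBDmut, against 113 and 111 CPM in WT, and the DBDmut libraries were the lowest (log2 fold change -1.49 ± 0.19, adjusted p = 2.5e-05). ITGA11 was at 1.54 and 1.17 CPM in CBR, 2.05 and 1.44 CPM in delIDR1 and 0.384 and 0.461 CPM in DBDmut, against 2.58 and 2.67 CPM in WT, and was called in CBR (log2 fold change -0.95 ± 0.38, adjusted p = 0.0484) and DBDmut (-2.62 ± 0.46, adjusted p = 9.0e-04).

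The beta subunits ITGB5 and ITGB8 were low in CBR and delIDR1 and nearer to WT in DBDmut. ITGB5 was at 109 and 108 CPM in CBR (log2 fold change -1.74 ± 0.076, adjusted p = 1.3e-12), 116 and 110.2 CPM in delIDR1 (-1.67 ± 0.076, adjusted p = 5.6e-12) and 266 and 258 CPM in DBDmut (-0.46 ± 0.073, adjusted p = 3.6e-04), against 363 and 359 CPM in WT. ITGB8 was at 9.15 and 9.93 CPM in CBR and 13.1 and 13.6 CPM in delIDR1, against 70.6 and 66.8 CPM in WT (log2 fold change -2.85 ± 0.22 and -2.37 ± 0.22, adjusted p = 6.5e-09 and 9.0e-08). In DBDmut it was at 52.2 and 57.8 CPM, not called against WT (log2 fold change -0.32 ± 0.20, 95% interval -0.74 to 0.10). In CBR, ITGB8 was also below all 4 empty vector libraries, at 22.2, 23.7, 12.2 and 13.7 CPM (log2 fold change -0.93 ± 0.20, adjusted p = 7.5e-04). Against their own pair, at 22.2 and 23.7 CPM, ITGB8 was called lower in both CBR and delIDR1. ITGB3 was at 1.06 and 1.40 CPM in CBR, 2.44 and 1.84 CPM in delIDR1 and 3.55 and 3.04 CPM in DBDmut, against 8.14 and 8.57 CPM in WT, lower in all 3 (log2 fold changes -2.77 ± 0.33, -1.96 ± 0.31 and -1.34 ± 0.30) and above every empty vector library in all 3. ITGB6 had 0 reads in CBR, at least 7.28-fold lower than WT, and 0.528 and 0.323 CPM in DBDmut, not called against WT. ITGB4, the partner of ITGA6 in hemidesmosomes, was at 1.80 and 1.96 CPM in CBR and 2.31 and 2.16 CPM in delIDR1, against 0.937 and 1.27 CPM in WT, higher in both (log2 fold change 0.76 ± 0.30 and 1.00 ± 0.30). That call was lost without 1 or more single libraries.

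ITGAV and ITGA6 were likewise lower in CBR and delIDR1 than in WT. ITGAV was at 325 and 339.7 CPM in CBR, 353 and 351 CPM in delIDR1 and 595 and 666 CPM in DBDmut, against 688 and 671 CPM in WT (log2 fold change -1.03 ± 0.19, -0.95 ± 0.19 and, not called, -0.11 ± 0.19). ITGA6 was at 183 and 194 CPM in CBR, 233 and 231 CPM in delIDR1 and 316 and 336 CPM in DBDmut, against 404 and 389 CPM in WT (log2 fold change -1.07 ± 0.097, -0.77 ± 0.097 and, not called, -0.28 ± 0.096). ITGA2 was lower than in WT in all 3, with 3.39 and 3.12 CPM in CBR, 3.36 and 2.96 CPM in delIDR1 and 3.98 and 4.47 CPM in DBDmut, against 8.14 and 7.03 CPM in WT. ITGA10 was not called against WT in any of them.

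VCL was at 448 and 442 CPM in CBR (log2 fold change -1.07 ± 0.074, adjusted p = 1.0e-09), 466 and 456.5 CPM in delIDR1 (-1.02 ± 0.074, adjusted p = 3.6e-09) and 746 and 783 CPM in DBDmut (-0.29 ± 0.073, adjusted p = 0.0215), against 919 and 947 CPM in WT. ZYX was at 199.8 and 193 CPM in CBR, 227 and 235 CPM in delIDR1 and 355 and 344 CPM in DBDmut, against 490.1 and 515 CPM in WT (log2 fold change -1.36 ± 0.13, -1.12 ± 0.13 and -0.52 ± 0.12, all called). The CBR and delIDR1 libraries of ZYX lay inside or next to the empty vector range of 226, 234, 171 and 169.7 CPM, whereas those of VCL stayed above it. PXN was at 118 and 110.4 CPM in CBR, 126 and 118 CPM in delIDR1 and 182 and 172 CPM in DBDmut, against 191 and 198 CPM in WT (log2 fold change -0.77 ± 0.097, -0.68 ± 0.097 and, not called, -0.14 ± 0.096). TLN2 was at 42.2 and 41.4, 40.2 and 42.9 and 60.4 and 62.9 CPM in the same order, against 83.3 and 81.2 CPM in WT. TNS1 had another order. It was at 2.68 and 2.89 CPM in CBR, 3.45 and 3.14 CPM in delIDR1 and 1.01 and 0.461 CPM in DBDmut, against 5.44 and 5.76 CPM in WT, with DBDmut the lowest (log2 fold change -2.93 ± 0.35, adjusted p = 1.1e-05). BCAR1 was at 107 and 96.5 CPM in CBR and 84.0 and 85.2 CPM in delIDR1, higher in CBR than in WT at 78.3 and 77.5 CPM (log2 fold change 0.38 ± 0.071, adjusted p = 2.2e-04), and at 66.7 and 64.1 CPM in DBDmut (-0.25 ± 0.072, adjusted p = 0.0434). Against WT, PARVB, LIMS1, FERMT2 and ILK were lower in both CBR and delIDR1, with log2 fold changes of -0.73 to -0.25.

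The split between the truncation delIDR1 and the ARID-domain mutant was tested directly, in a comparison added after the values above were seen. Of the 31 genes, 7 were higher and 15 lower in delIDR1 than in DBDmut (all genes 18.4% and 22.7%). The 7 were ITGA5 (log2 fold change 1.50 ± 0.14), TNS1 (2.16 ± 0.36), ITGA11 (2.03 ± 0.47), ITGA10 (0.97 ± 0.31), ITGA3 (0.79 ± 0.19), ITGA7 (0.58 ± 0.21) and BCAR1 (0.37 ± 0.071). The 15 included ITGB8 (log2 fold change -2.05 ± 0.22), ITGB5 (-1.21 ± 0.075), ITGAV (-0.84 ± 0.19), PARVB (-0.80 ± 0.12) and VCL (-0.73 ± 0.074), with ITGB6 lower by a read ratio of 6.38 (95% counting interval 1.86 to 33.8). ITGB3 was not called between them (log2 fold change -0.62 ± 0.32, adjusted p = 0.131). Of the 22 calls, 15 remained without any 1 of the 4 libraries. Between CBR and delIDR1 themselves 1 gene was called, BCAR1 (log2 fold change 0.26 ± 0.071, adjusted p = 0.0299), against 3.05% of all genes higher and 3.4% lower, and that call was lost without CBR replicate 1 or either delIDR1 library. The number depended on the fit. It was 7 when the fit kept both empty vector pairs apart. A fit of only CBR and delIDR1 called 15, and 5276 of all genes.

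**Figure D3:**
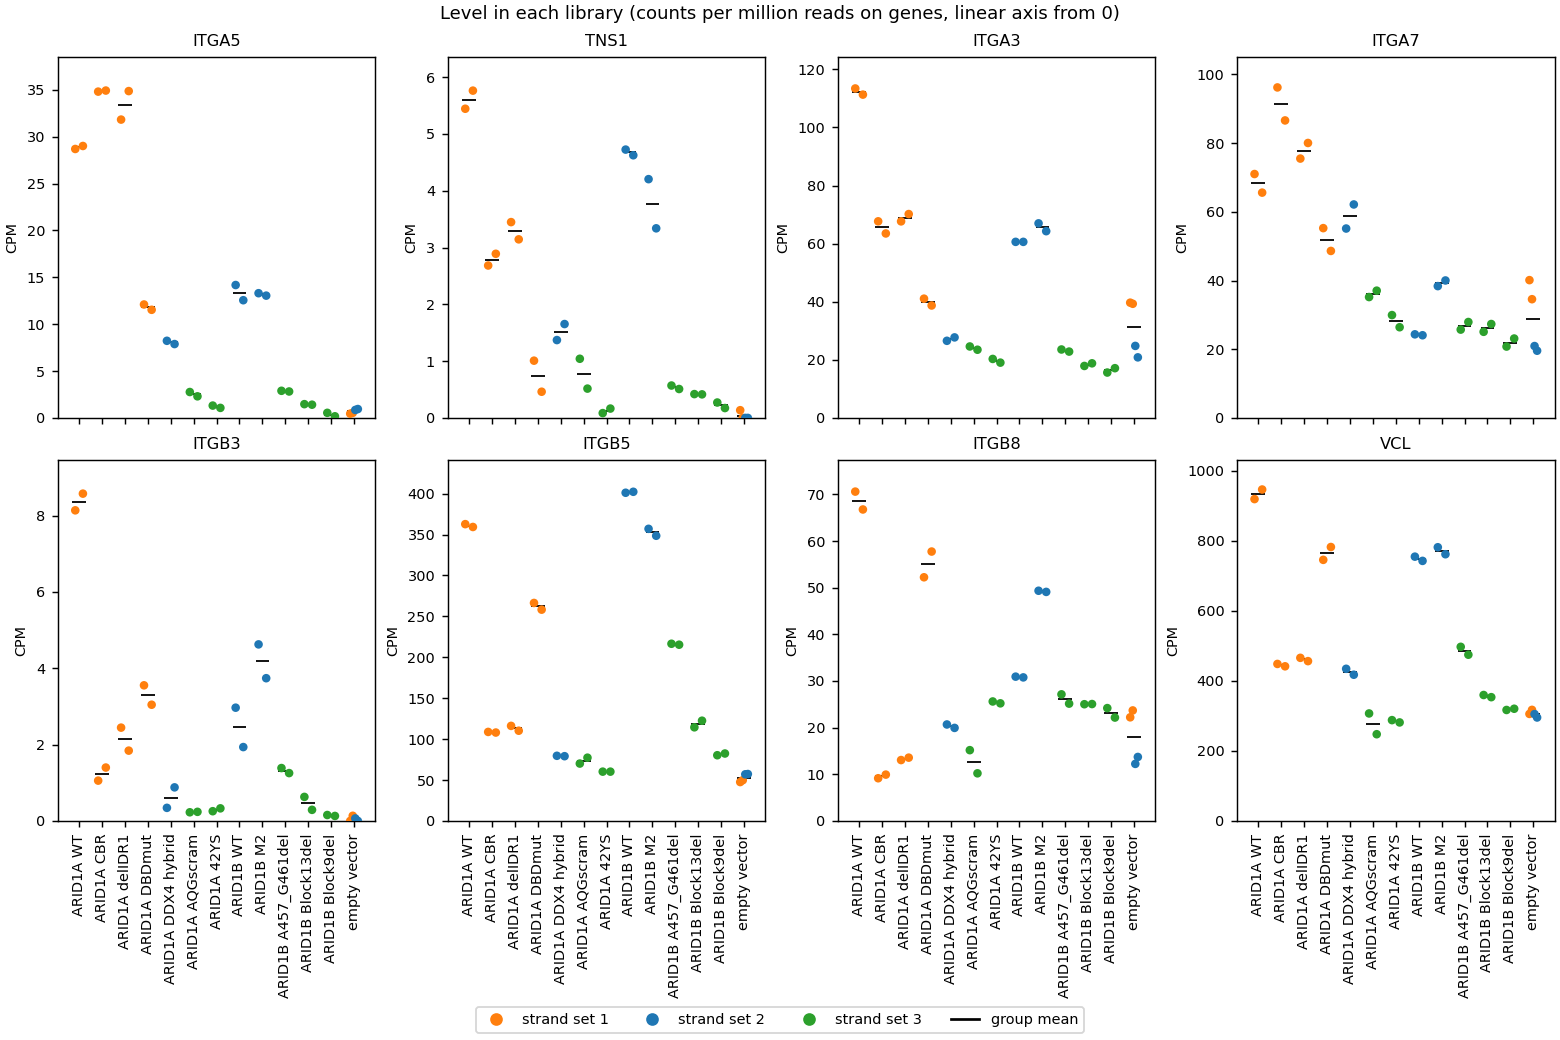
CPM per library (points) in the 13 groups, the empty vector rightmost, for ITGA5, TNS1, ITGA3, ITGA7, ITGB3, ITGB5, ITGB8 and VCL. Colours give the 3 strand sets and short lines the group means. ITGA5 reaches 28.7 to 34.9 CPM in ARID1A WT, CBR and delIDR1 and stays at or below 0.948 CPM in the empty vector, while ITGB5 is highest in ARID1B WT at 401 and 402 CPM.

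Against the empty vector, 15 of the 31 genes were higher and 4 lower in CBR (25.2% and 27.8% of all genes, median 0.34), and 15 and 7 against its own pair (28.7% and 30.8%). In delIDR1 14 were higher and 4 lower (22.4% and 27.7%, median 0.41), and 13 and 6 against its own pair (25.2% and 31.1%). In DBDmut 17 were higher and 0 lower (16.9% and 18.3%, median 0.55), and 18 and 2 against its own pair (30% and 29.1%). For DBDmut 0 were lower at an unadjusted p under 0.05 and by DESeq2. Of the 27 genes, 13 were higher and 4 lower in CBR (median 0.34), 11 and 4 in delIDR1 (median 0.25) and 14 and 0 in DBDmut (median 0.38). In a fit of only the construct and the empty vector 12 genes were called in CBR and 10 in DBDmut. PARVB, LIMS1 and FERMT2 were lower than in the empty vector in both CBR and delIDR1, for example PARVB at 14.2 and 12.3 CPM in CBR and 13.6 and 14.2 CPM in delIDR1, against 21.9, 22.2, 29.1 and 27.9 CPM in the empty vector. Parvins and LIMS1 (PINCH) form a complex with ILK, and FERMT2 codes for a kindlin. TLN2, at 42.2 and 41.4 CPM in CBR, was not called against all 4 empty vector libraries (log2 fold change 0.36 ± 0.19, adjusted p = 0.123) and was higher than its own pair (0.87, adjusted p = 1.1e-08).

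The DDX4 hybrid had more ITGA5, ITGA7 and PXN RNA than the empty vector and less ITGB5 and VCL RNA than ARID1A WT. Against the empty vector 16 of the 31 genes were higher and 1 lower (all genes 19.7% and 19.8%, median log2 fold change 0.30), and 21 and 1 against its own pair (26.1% and 24.4%). Of the 27 genes, 13 were higher and 1 lower (median 0.26). ITGA5 was at 8.23 and 7.88 CPM, against 0.453, 0.539, 0.850 and 0.948 CPM in the empty vector (log2 fold change 3.57 ± 0.18, adjusted p = 1.2e-11). TNS1 was at 1.37 and 1.65 CPM, against 0.136, 0, 0 and 0 CPM in the empty vector, a read ratio of 39.2 (95% counting interval 12.96 to 194). Against the floor of its own pair TNS1 was at least 16.8-fold higher. ITGA7 was at 55.1 and 62.2 CPM, against 40.1, 34.6, 20.9 and 19.6 CPM in the empty vector (log2 fold change 1.02 ± 0.18, adjusted p = 2.2e-04, and 1.54 against the own pair). For these 3 genes both hybrid libraries lay above every empty vector library. ITGB5 at 79.6 and 79.1 CPM (log2 fold change 0.59 ± 0.064, adjusted p = 9.9e-07), VCL at 435 and 418 CPM (0.48 ± 0.062, adjusted p = 8.4e-06) and PXN at 103 and 107 CPM (0.88 ± 0.082, adjusted p = 1.3e-07) were above all empty vector libraries too. ITGA1 was called at 0.495 and 0.281 CPM, against 0.136, 0.180, 0.196 and 0.0557 CPM in the empty vector (log2 fold change 1.41 ± 0.45), a difference of few reads that was lost without hybrid replicate 1 or empty vector replicate 4. PARVB was the gene that was lower (log2 fold change -0.37 ± 0.10, adjusted p = 0.00797). The number of calls was 11 without hybrid replicate 1, against 17 with all libraries, and 11 of the 17 remained without any 1 library. A fit of only the hybrid and the empty vector called 6.

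Set against ARID1A WT, which lies in another strand set, 2 of 31 genes were higher and 17 lower in the hybrid (all genes 16.8% and 19.6%). When each was taken relative to its own empty vector pair, 5 were higher and 13 lower (25.3% and 25.2%). ITGB5 was at 79.6 and 79.1 CPM in the hybrid and 363 and 359 CPM in WT (log2 fold change -2.19 ± 0.077, and -2.42 relative to own pairs). ITGA5 (log2 fold change -1.84 ± 0.14, and -2.70), VCL (-1.13 ± 0.074, and -1.08) and ITGB8 (-1.76 ± 0.21, and -0.94) were lower on both scales. ITGA7 was not called against WT in the pooled fit (log2 fold change -0.22 ± 0.21, adjusted p = 0.444) and was higher relative to own pairs (0.67, adjusted p = 7.9e-05).

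In AQGscram and 42YS the genes called were split between higher and lower, with counts near the shares over all genes. ARID1A RNA in AQGscram was not above the empty vector range. In AQGscram 4 of the 31 genes were higher and 5 lower than in the empty vector (all genes 10.9% and 13.7%, median 0.04), and in 42YS 6 were higher and 6 lower (15.8% and 18%, median -0.08). Of the 27 genes, 3 were higher and 5 lower in AQGscram (median 0.03) and 4 and 6 in 42YS (median -0.10). Against empty vector replicates 1 and 2 alone the counts were 8 and 10 in AQGscram and 8 and 12 in 42YS (60.2% and 61% of all genes called either way). Against replicates 3 and 4 alone they were 6 and 5 in AQGscram and 7 and 7 in 42YS (34% and 45%). Genes called in the same direction in all 3 comparisons were ITGA5, ITGB5, PXN and TNS1 (higher) and ITGB1, ZYX, PARVA and TNS3 (lower) in AQGscram, and ITGA1 and ITGA10 (higher) and ITGA3, ZYX, ILK and TNS3 (lower) in 42YS. ITGA1 passed the low-count filter only through the 42YS libraries and 1 hybrid library, so its place in this list is no test. TNS1 passed the filter only through libraries other than the empty vector, so its place is no test either. With all 4 empty vector libraries, AQGscram had 8 calls without replicate 2 and 11 without replicate 1, and 7 of its 9 calls remained without any 1 library. In 42YS 3 of the 12 calls remained, and the number of calls was 4 without 42YS replicate 1 and 5 without replicate 2. In edgeR fits of only the construct and the empty vector, 0 genes were called in AQGscram (4 higher and 4 lower at an unadjusted p under 0.05) and 2 in 42YS.

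ITGA5 was at 2.76 and 2.30 CPM in AQGscram (log2 fold change 1.90 ± 0.22, adjusted p = 9.2e-06) and 1.32 and 1.07 CPM in 42YS (0.82 ± 0.25, adjusted p = 0.0178), against 0.453, 0.539, 0.850 and 0.948 CPM in the empty vector. Against empty vector replicates 3 and 4 alone the 42YS value was 0.40 and not called. TNS1 was at 1.04 and 0.516 CPM in AQGscram, 0.0849 and 0.165 CPM in 42YS and 0.136, 0, 0 and 0 CPM in the empty vector, a read ratio of 19.7 (95% counting interval 6.22 to 99.9) in AQGscram. ITGB5 was at 70.1 and 77.3 CPM in AQGscram (log2 fold change 0.48 ± 0.065, adjusted p = 4.8e-05) and 60.2 and 60.2 CPM in 42YS (0.19 ± 0.066, adjusted p = 0.0322), against 47.5, 49.8, 57.0 and 57.3 CPM in the empty vector. The 42YS call of ITGB5 was not made against empty vector replicates 3 and 4 alone (0.08, adjusted p = 0.251), nor without empty vector replicate 1 or 2 or either 42YS library. All of these ITGB5 libraries lay above the empty vector and far below ARID1A WT, at 363 and 359 CPM. ITGA1 was at 0.722 and 0.577 CPM in 42YS and 0.181 and 0.159 CPM in AQGscram, against 0.136, 0.180, 0.196 and 0.0557 CPM in the empty vector, higher in both 42YS libraries than in any other library (log2 fold change 2.15 ± 0.42). Only these libraries and hybrid replicate 1 reached the low-count limit for ITGA1, so this value describes them and is no test. ITGA10 was at 2.68 and 2.31 CPM in 42YS, against 1.86, 1.57, 0.850 and 0.669 CPM in the empty vector (log2 fold change 0.96 ± 0.25, adjusted p = 0.00704). ITGA3 was at 20.3 and 19.0 CPM in 42YS, against 39.7, 39.3, 24.8 and 20.8 CPM in the empty vector (log2 fold change -0.67 ± 0.17, adjusted p = 0.00601). ZYX was lower in both constructs, at 136 and 159.9 CPM in AQGscram and 149 and 152 CPM in 42YS, against 226, 234, 171 and 169.7 CPM in the empty vector.

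Between the 2 constructs, which share a strand set, 5 of the 31 genes were higher and 6 lower in 42YS than in AQGscram (all genes 8.24% and 7.54%). ITGA10 (log2 fold change 1.06 ± 0.30) and ITGB8 (1.01 ± 0.22) were higher, ITGB8 with 25.6 and 25.2 CPM in 42YS and 15.2 and 10.2 CPM in AQGscram. ITGA1 is counted among the 5 (1.90 ± 0.47). Of these 2 constructs only 42YS reached the low-count limit for ITGA1, so its value is no test here either. ITGA5 (log2 fold change -1.08 ± 0.22), TNS1 (-2.56 ± 0.58), PXN (-0.51 ± 0.099) and ITGB5 (-0.29 ± 0.075) were lower. Of the 11 calls, 3 remained without any 1 of the 4 libraries, and the number of calls was 6 without AQGscram replicate 2, 4 without 42YS replicate 1 and 7 without 42YS replicate 2.

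Both ARID1B WT and its deletion mutant M2 had more integrin and adaptor RNA than the empty vector, including that of ITGB5 and ITGA5. Of the 31 genes, 18 were higher and 0 lower in ARID1B WT than in the empty vector (all genes 19.2% and 23.9%, median log2 fold change 0.51), and 21 and 2 against its own pair (23.6% and 28.5%). Without any 1 library 17 of the 18 calls remained. In M2, 21 were higher and 0 lower (22.1% and 25.1%, median 0.68), and 24 and 1 against its own pair (25.4% and 27.7%), with 18 of the 21 calls remaining. Of the 27 genes, 15 were higher and 0 lower in ARID1B WT (median 0.34) and 18 and 0 in M2 (median 0.58). At an unadjusted p under 0.05, 2 genes were lower in ARID1B WT and 0 in M2, and DESeq2 called 0 lower in either.

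ITGB5 was at 401 and 402 CPM in ARID1B WT (log2 fold change 2.93 ± 0.062, adjusted p = 6.8e-18) and 357 and 348 CPM in M2 (2.74 ± 0.062, adjusted p = 1.3e-17), against 47.5, 49.8, 57.0 and 57.3 CPM in the empty vector. ITGA5 was at 14.2 and 12.6 CPM in ARID1B WT (log2 fold change 4.30 ± 0.17, adjusted p = 1.2e-13) and 13.3 and 13.04 CPM in M2 (4.28 ± 0.17, adjusted p = 8.7e-14), against 0.453, 0.539, 0.850 and 0.948 CPM in the empty vector. TNS1 was at 4.73 and 4.63 CPM in ARID1B WT, a read ratio of 121 (95% counting interval 40.7 to 591), and 4.20 and 3.34 CPM in M2. Against the floor of the own pair TNS1 was at least 51.7-fold higher in ARID1B WT and at least 42.1-fold higher in M2. All libraries of both constructs were above all empty vector libraries for these 3 genes. ITGB3 was at 2.97 and 1.94 CPM in ARID1B WT and 4.63 and 3.74 CPM in M2, against 0, 0.135, 0.0654 and 0 CPM in the empty vector. ITGB6 was at least 7.87-fold higher in ARID1B WT and at least 7.97-fold higher in M2 than the floor of all 4 empty vector libraries. Against the floor of the own pair it was at least 3.37-fold and at least 3.42-fold higher. ITGA3 was at 60.6 and 60.6 CPM in ARID1B WT and 67.0 and 64.3 CPM in M2, against 39.7, 39.3, 24.8 and 20.8 CPM in the empty vector (log2 fold change 0.95 ± 0.16 and 1.07 ± 0.16, and 1.42 and 1.53 against the own pair). ITGAV rose in both (log2 fold change 0.82 ± 0.16 in ARID1B WT and 0.68 ± 0.16 in M2, and 1.19 and 1.05 against the own pair). VCL was at 755 and 743 CPM in ARID1B WT (log2 fold change 1.29 ± 0.061, adjusted p = 1.7e-12) and 782 and 762 CPM in M2 (1.34 ± 0.061, adjusted p = 8.6e-13), against 306, 317, 305 and 295 CPM in the empty vector. PXN rose by 1.38 ± 0.082 in ARID1B WT and 1.63 ± 0.081 in M2 on the log2 scale, and TLN2 by 1.13 ± 0.19 and 1.13 ± 0.19. TLN2 already differed between the empty vector pairs, at 22.2, 23.6, 42.2 and 43.2 CPM, and against the own pair its values were 0.74 and 0.74.

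ITGA7 was called between the 2 ARID1B constructs, and that call was lost without 1 or more single libraries. ITGA7 was at 38.4 and 40.0 CPM in M2 and 24.3 and 24.1 CPM in ARID1B WT (log2 fold change 0.70 ± 0.22, adjusted p = 0.0395), with 40.1, 34.6, 20.9 and 19.6 CPM in the empty vector. In all, 6 of the 31 genes were higher and 1 lower in M2 than in ARID1B WT (all genes 8.31% and 6.01%). ITGB8 was at 49.3 and 49.1 CPM in M2 and 30.9 and 30.8 CPM in ARID1B WT (log2 fold change 0.67 ± 0.20, adjusted p = 0.0309). ZYX was at 677 and 666 CPM in M2 and 479 and 504 CPM in ARID1B WT (0.45 ± 0.12, adjusted p = 0.0183). BCAR1 was at 101 and 99.9 CPM in M2 and 79.8 and 78.9 CPM in ARID1B WT (0.34 ± 0.071, adjusted p = 0.00295). ITGA2 and ILK were also higher. ITGA6 was lower, at 253 and 253 CPM in M2 and 379.8 and 374 CPM in ARID1B WT (log2 fold change -0.57 ± 0.097, adjusted p = 4.7e-04). The calls of ITGA6 and BCAR1 remained without any 1 library, and the number of calls was 2 or 3 without any 1 library of either construct, against 12 higher and 2 lower when the fit kept both empty vector pairs apart (19.1% and 15.3% of all genes). ITGA5 and ITGB5 were not called between them (log2 fold change -0.02 ± 0.14 with 95% interval -0.32 to 0.28, and -0.19 ± 0.073 with -0.34 to -0.03).

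**Figure D4:**
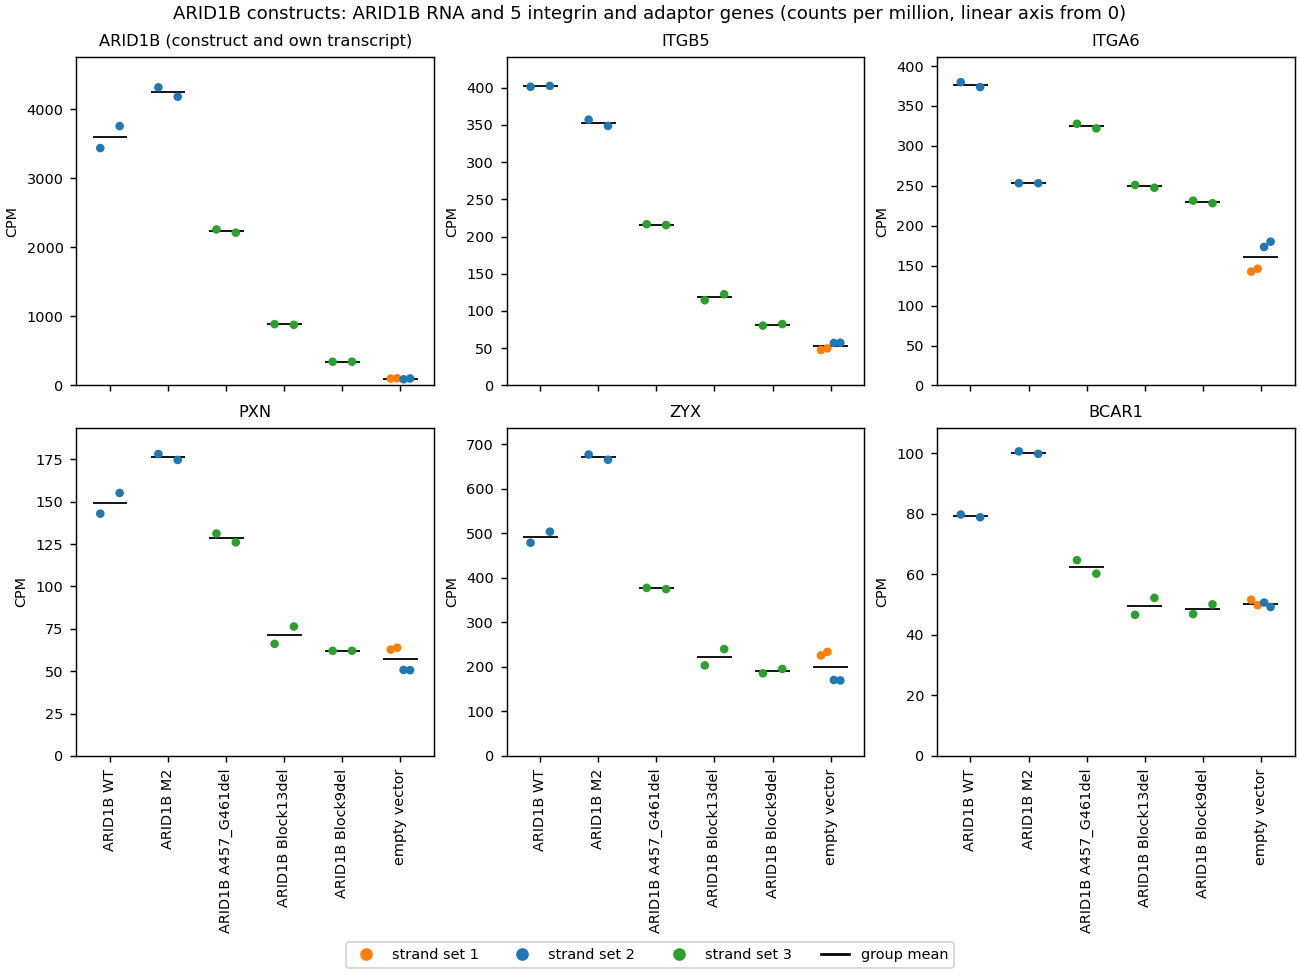
CPM per library (points, with group means as lines) of ARID1B, ITGB5, ITGA6, PXN, ZYX and BCAR1 in ARID1B WT, M2, A457_G461del, Block13del, Block9del and, rightmost, the empty vector. Among the 3 deletions of the third strand set, ITGB5 and ARID1B are both highest in A457_G461del and lowest in Block9del, where ITGB5 stands at 80.3 and 82.4 CPM.

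The constructs A457_G461del, Block13del and Block9del of ARID1B differed in how many of the genes stood above the empty vector. Against the empty vector, 16 of the 31 genes were higher and 3 lower in A457_G461del (all genes 19.1% and 19.9%, median 0.31), 10 and 3 in Block13del (19.1% and 20.2%, median 0.12) and 5 and 3 in Block9del (17.8% and 21.2%, median 0.01). In Block9del neither count lay above the share over all genes. Of the 27 genes, 13 were higher and 3 lower in A457_G461del (median 0.19), 8 and 3 in Block13del (median 0.12) and 4 and 3 in Block9del (median -0.04). Genes higher against all 4 and against either empty vector pair alone numbered 12 in A457_G461del, 8 in Block13del and 3 in Block9del (ITGA6, ITGB5 and LIMS1). The share of all genes meeting this 3-way rule is not given, so these counts only list genes. With replicates 1 and 2 alone as control, 63.4%, 63.5% and 63.8% of all genes were called in either direction in the 3 constructs in this order, and with replicates 3 and 4 alone 47.8%, 44.2% and 42.6%. Calls in A457_G461del numbered 12 without either of its replicates, those in Block13del 7 without its replicate 1 and those in Block9del 15 without empty vector replicate 4. Without any 1 library 12 of 19, 6 of 13 and 5 of 8 calls remained in the same order of constructs. Fits of only the construct and the empty vector called 9, 2 and 1. ARID1B RNA had the same order of constructs (2236, 883 and 344 CPM), and its part in these differences was not tested.

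ITGB5 was at 217 and 215 CPM in A457_G461del (log2 fold change 2.03 ± 0.062, adjusted p = 4.9e-15), 114 and 122 CPM in Block13del (1.17 ± 0.063, adjusted p = 6.1e-11) and 80.3 and 82.4 CPM in Block9del (0.62 ± 0.064, adjusted p = 7.8e-07), against 47.5, 49.8, 57.0 and 57.3 CPM in the empty vector. ITGA5 was at 2.89 and 2.82 CPM, 1.47 and 1.41 CPM and 0.543 and 0.174 CPM in the same 3 constructs, against 0.453, 0.539, 0.850 and 0.948 CPM in the empty vector, and was called in A457_G461del (log2 fold change 2.07 ± 0.21, adjusted p = 2.5e-07) and Block13del (1.09 ± 0.25, adjusted p = 0.00205) but not in Block9del (-0.86 ± 0.33, adjusted p = 0.0557). The Block13del call was not made against empty vector replicates 3 and 4 alone (0.67). ITGA6 stayed above the empty vector in all 3, at 328 and 322 CPM in A457_G461del, 251 and 248 CPM in Block13del and 231 and 228 CPM in Block9del, against 143, 146, 173 and 180.0 CPM in the empty vector. ITGB3 was at 1.39 and 1.25 CPM in A457_G461del, 0.629 and 0.290 CPM in Block13del and 0.155 and 0.130 CPM in Block9del, against 0, 0.135, 0.0654 and 0 CPM in the empty vector, and Block9del was not called. VCL was at 497 and 475 CPM in A457_G461del (log2 fold change 0.67 ± 0.062, adjusted p = 8.0e-08), 359.7 and 354 CPM in Block13del (0.22 ± 0.063, adjusted p = 0.00955) and 317 and 320.5 CPM in Block9del (0.06 ± 0.063, adjusted p = 0.479), against 306, 317, 305 and 295 CPM in the empty vector. ITGA3 was below every empty vector library in Block13del (17.9 and 18.8 CPM, -0.77 ± 0.18, adjusted p = 0.00205) and Block9del (15.6 and 17.1 CPM, -0.94 ± 0.18, adjusted p = 4.3e-04), with 39.7, 39.3, 24.8 and 20.8 CPM in the empty vector. TNS3 was lower in all 3, with log2 fold changes of -0.35, -0.25 and -0.24.

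Between these deletions, which share a strand set, 9 of the 31 genes were higher and 0 lower in A457_G461del than in Block13del (all genes 3.59% and 1.89%). The 9 included ITGA5 (log2 fold change 0.99 ± 0.22), ITGB5 (0.87 ± 0.074), PXN (0.85 ± 0.098), ZYX (0.76 ± 0.12) and VCL (0.45 ± 0.073). PXN was at 131 and 126 CPM in A457_G461del and 66.1 and 76.4 CPM in Block13del, and ZYX at 378 and 375 CPM and 203 and 240.1 CPM. Against Block9del, 12 genes were higher and 0 lower in A457_G461del (8.2% and 4.39% of all genes). In both comparisons 0 were lower at an unadjusted p under 0.05 and by DESeq2. Block13del and Block9del differed in 2 genes, ITGA5 (log2 fold change 1.95 ± 0.32, adjusted p = 0.00284) and ITGB5 (0.54 ± 0.075, adjusted p = 5.2e-04), both higher in Block13del, against 0.471% of all genes higher and 0% lower. The number of calls between A457_G461del and Block13del was 4 or 5 without any single library of either, and 1 call between the block deletions was left without Block9del replicate 2.

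ARID1A WT and ARID1B WT, set against each other across strand sets, differed in 10 of the 31 genes in the pooled fit, all higher in ARID1A WT (all genes 8.96% higher and 4.56% lower). At an unadjusted p under 0.05, 2 were lower, and DESeq2 called 0 lower. Relative to own empty vector pairs 7 were higher and 6 lower, near the shares over all genes (22.9% and 18.7%). The 6 included ITGAE (log2 fold change -0.59), ITGAV (-0.53), PARVA (-0.42), ZYX (-0.40) and FERMT2 (-0.39), which were not called in the pooled fit. ITGA5 was at 28.7 and 29.0 CPM in ARID1A WT and 14.2 and 12.6 CPM in ARID1B WT (log2 fold change 1.11 ± 0.14, and 1.97 relative to own pairs). ITGA7 was at 71.0 and 65.6 CPM in ARID1A WT and 24.3 and 24.1 CPM in ARID1B WT (log2 fold change 1.50 ± 0.22, and 0.61). VCL and TLN1 were also higher on both scales (VCL 0.32 ± 0.073, and 0.26). ITGA11, ITGA3, ITGB3, ITGB8, ITGA2 and PXN were called in the pooled fit and not relative to own pairs (ITGB8 1.15 ± 0.20, and 0.33, ITGA3 0.89 ± 0.18, and 0.09). ITGB5 was not called in the pooled fit (log2 fold change -0.15 ± 0.073, adjusted p = 0.179).

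The 12 comparisons with the empty vector share the empty vector libraries. Over them ITGB5 was higher in 12, ITGA5 in 11, PXN and ITGA6 in 10, VCL in 9, and TLN2 and BCAR1 in 8. TNS1 was higher in 11 and ITGB3 in 10, but both passed the low-count filter only through libraries other than the empty vector. The counts for TNS1 and ITGB3 therefore describe these genes and are no test. In the third strand set the calls of ITGB5 and ITGB3 in 42YS, ITGA5 in 42YS and Block13del, TNS1 in Block9del and TLN2 in A457_G461del, Block13del and Block9del were each lost against 1 of the empty vector pairs taken alone. ITGA5 ran over 0.174 to 34.9 CPM, and ITGB5 ran over 47.5 to 402 CPM. ITGB1 (538 to 1027 CPM) and ITGAE (12.6 to 25.2 CPM), whose product pairs with that of ITGB7 to bind E-cadherin, were higher in none of these and each in 2 of the 7 comparisons with an own empty vector pair. ITGB1 was lower in 2 of the 12 and in 3 of the 7, and ITGAE in 0 of the 12 and in 2 of the 7. ITGB7 ran over 0.220 to 0.880 CPM, and PARVB over 12.3 to 29.1 CPM, with PARVB lower in 4 of the 12 comparisons and higher in none. TLN1 (334 to 542 CPM), PTK2 (181 to 248 CPM), ILK (55.2 to 102 CPM), PARVA (81.4 to 153 CPM), FERMT2 (84.2 to 148 CPM), LIMS1 (21.3 to 51.8 CPM) and TNS3 (79.7 to 136 CPM) moved less than 2-fold in every comparison with the empty vector.

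Genes around the receptors were counted from lists of ligands, other adhesion components and downstream kinases and myosins. Of 29 tested ligand genes (of 37), 24 were higher and 1 lower in ARID1A WT than in the empty vector (all genes 21.1% and 23.5%). The counts were 15 and 2 in CBR (25.2% and 27.8%), 19 and 3 in delIDR1 (22.4% and 27.7%) and 20 and 1 in DBDmut (16.9% and 18.3%). They were 19 and 1 in ARID1B WT (19.2% and 23.9%) and 22 and 2 in M2 (22.1% and 25.1%). In the DDX4 hybrid the counts were 10 and 3 (19.7% and 19.8%), in AQGscram 6 and 7 (10.9% and 13.7%), and in 42YS 5 and 8 (15.8% and 18%). In A457_G461del they were 14 and 4 (19.1% and 19.9%), in Block13del 6 and 4 (19.1% and 20.2%) and in Block9del 3 and 6 (17.8% and 21.2%). Genes named from these lists were picked for a small p in ARID1A WT against the empty vector, so their adjusted p there is no separate test. LAMB1, a laminin chain, was at 328 ± 4.08 CPM in WT (SD, n = 2) and 8.09 ± 0.338 CPM in the empty vector (SD, n = 4), log2 fold change 5.34 ± 0.067, adjusted p = 1.7e-21, and relative to WT it was -5.35 ± 0.089 in CBR, -3.68 ± 0.080 in delIDR1 and -1.09 ± 0.071 in DBDmut. COL1A1, a fibrillar collagen chain, was at 89.3 ± 1.27 CPM in WT (SD, n = 2) and 0.753 ± 0.332 CPM in the empty vector (SD, n = 4), log2 fold change 6.91 ± 0.16, adjusted p = 1.2e-17, with -2.29 ± 0.14 in CBR, -2.67 ± 0.15 in delIDR1 and -2.37 ± 0.14 in DBDmut relative to WT. Of 42 tested adhesion components (of 50), 22 were higher and 6 lower in ARID1A WT (21.1% and 23.5%), 18 and 3 in ARID1B WT (19.2% and 23.9%) and 19 and 8 in M2 (22.1% and 25.1%). ACTN1, which codes for an actin crosslinker, was at 501 ± 5.74 CPM in WT (SD, n = 2) and 203 ± 8.88 CPM in the empty vector (SD, n = 4), log2 fold change 1.31 ± 0.047, adjusted p = 1.2e-14, with -1.14 ± 0.056 in CBR, -1.16 ± 0.056 in delIDR1 and -0.19 ± 0.055 in DBDmut relative to WT. NEDD9, a relative of BCAR1, was at 14.5 ± 0.932 CPM in WT (SD, n = 2) and 0.122 ± 0.0504 CPM in the empty vector (SD, n = 4), log2 fold change 6.89 ± 0.26, and relative to WT it was lower in CBR (-4.91 ± 0.27) and delIDR1 (-3.22 ± 0.22) and not called in DBDmut (0.10 ± 0.18). Its empty vector mean lay under the low-count limit of 0.454 CPM, so the value against the empty vector describes NEDD9 and is no test. Of 19 tested kinases, GTPases and myosins (of 20), 7 were higher and 2 lower in ARID1A WT (21.1% and 23.5%), 7 and 1 in ARID1B WT (19.2% and 23.9%) and 10 and 2 in M2 (22.1% and 25.1%). MYLK, myosin light chain kinase, was at 92.3 ± 3.08 CPM in WT (SD, n = 2) and 14.8 ± 5.94 CPM in the empty vector (SD, n = 4), log2 fold change 2.66 ± 0.20, adjusted p = 1.2e-09.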

How the data were processed

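Polyadenylated RNA of 28 AN3CA libraries in 13 groups was analysed. Per the submitters' processing notes, bcl2fastq, STAR 2.5.2b, Bowtie2 and hg19 were used, and the role of each tool and the gene annotation are not given in the sources used here. The deposited values are raw read counts for 26346 gene symbols in the layout of STAR, not normalized by the authors. The column of reads on the strand opposite the gene was used, and the 21.6 to 36.3% of reads that name no gene were left out. How reads shared by overlapping genes were counted is not given in the sources used here.

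In edgeR 4.0.16 (limma 3.58.1, R 4.3.3), filterByExpr by group kept 14220 genes (0.454 CPM in at least 2 libraries), TMM scaled the libraries, and 1 quasi-likelihood fit over all 28 libraries with group as the only term gave 23 planned comparisons and 1 added later. Tests were two-sided, with Benjamini-Hochberg adjustment over all genes and a threshold of 0.05. Each standard error is the absolute log2 fold change divided by the root of its F statistic. A second fit held the empty vector pairs as separate groups. Folds against 0 reads use a floor of 3 reads over the group, and with 1 to 3 reads the ratio has a 95% exact binomial counting interval. The fit was checked on simulated data. Alternatives were DESeq2 1.42.0, RLE size factors, no filter, an average log2 CPM of at least 1, unstranded reads, a replicate block, only the groups compared, single empty vector pairs and leaving out each library. Tables and figures used Python 3.11.15, pandas 2.3.3, numpy 2.4.6 and matplotlib 3.10.9.

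Members, gene lists and tests were chosen with earlier results of these data known. Genes called at 2-fold or more in any comparison are described by their values per library, the others by range and count, and from each other list up to 4 called genes with the smallest p in ARID1A WT against the empty vector could be named. Promoter windows came from RefSeq (GRCh38.p14), matched by symbol. Depth was 16.6 to 27.9 M gene reads per library.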

Additional observations from a re-analysis of the deposited data

Results flagged for a closer look

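TNS1 in the empty vector had 0.136 CPM in replicate 1 and 0 CPM in replicates 2, 3 and 4, so that 1 library lay apart from the other 3. The 0.136 CPM rests on 3 reads. The usual rate, about 1 in 20 groups of 4 set apart by chance, is for continuous values and does not hold for counts this low, since any 1 library with reads beside 3 at 0 stands apart.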

How the results depend on the processing

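Counts of integrin and adaptor genes called that moved by more than 1.5 times are given here, and the cause was not tested. In fits of only the groups compared, which have fewer libraries to estimate the spread, the counts were 12 in ARID1A CBR, 10 in ARID1A DBDmut, 6 in ARID1A DDX4 hybrid, 0 in ARID1A AQGscram, 2 in ARID1A 42YS, 9 in ARID1B A457_G461del, 2 in ARID1B Block13del, 1 in ARID1B Block9del, 19 in ARID1A DBDmut over ARID1A WT, 15 in ARID1A CBR over ARID1A delIDR1, 17 in ARID1B M2 over ARID1B WT, 6 in ARID1A 42YS over ARID1A AQGscram, 16 in ARID1A WT over ARID1B WT. Replicate numbers did not pair the libraries (correlations of -0.132 to 0.119 over 78 pairs of groups, 1 of them over 0.1). The fit with replicate number as a block, in which numbers 3 and 4 hold only the empty vector, gave 18 in ARID1A AQGscram, 20 in ARID1A 42YS, 21 in ARID1B Block13del, 17 in ARID1B Block9del, 18 in ARID1A DBDmut over ARID1A WT, 7 in ARID1A CBR over ARID1A delIDR1, 14 in ARID1B M2 over ARID1B WT. With empty vector replicates 1 and 2 alone they were 18 in ARID1A AQGscram, 20 in ARID1A 42YS, 21 in ARID1B Block13del, 17 in ARID1B Block9del, with replicates 3 and 4 alone 15 in ARID1B Block9del, and when the fit kept both empty vector pairs apart 18 in ARID1A DBDmut over ARID1A WT, 7 in ARID1A CBR over ARID1A delIDR1, 14 in ARID1B M2 over ARID1B WT. ARID1A CBR over delIDR1, with 1 call, had 0 with no filter on low counts (2 higher and 4 lower at an unadjusted p under 0.05 in edgeR), 2 with reads counted without regard to strand and 3 with DESeq2. ARID1A 42YS over AQGscram had 7 when genes under an average log2 CPM of 1 were left out. RLE size factors moved no count by this much. Leaving out each library in turn gave 19 to 23 for ARID1A WT, 16 to 21 for ARID1A CBR, 14 to 19 for ARID1A delIDR1, 15 to 19 for ARID1A DBDmut, 11 to 17 for ARID1A DDX4 hybrid, 8 to 11 for ARID1A AQGscram, 4 to 16 for ARID1A 42YS, 17 to 21 for ARID1B WT, 18 to 23 for ARID1B M2, 12 to 19 for ARID1B A457_G461del, 7 to 17 for ARID1B Block13del, 6 to 15 for ARID1B Block9del, 17 to 18 for ARID1A CBR over ARID1A WT, 16 to 18 for ARID1A delIDR1 over ARID1A WT, 5 to 6 for ARID1A DBDmut over ARID1A WT, 0 to 1 for ARID1A CBR over ARID1A delIDR1, 2 to 3 for ARID1B M2 over ARID1B WT, 4 to 11 for ARID1A 42YS over ARID1A AQGscram, 4 to 5 for ARID1B A457_G461del over ARID1B Block13del, 9 for ARID1B A457_G461del over ARID1B Block9del, 1 to 2 for ARID1B Block13del over ARID1B Block9del, 16 to 18 for ARID1A DDX4 hybrid over ARID1A WT, 7 to 8 for ARID1A WT over ARID1B WT, 16 to 18 for ARID1A delIDR1 over ARID1A DBDmut.

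Directions turned under the choice of empty vector libraries and under the block, with the cause not tested. Some of the values below were not called at an adjusted p under 0.05. These were ITGA3 in ARID1B A457_G461del with replicates 3 and 4 alone (adjusted p = 0.772), and PARVA (0.988) and TNS1 (0.438) in ARID1A DDX4 hybrid over ARID1A WT with own pairs. With empty vector replicates 3 and 4 alone, log2 fold changes became ITGAE 0.38 in ARID1A WT, 0.37 in ARID1A DDX4 hybrid and 0.35 in ARID1A 42YS, ITGAV 0.30 in ARID1A CBR and 0.27 in ARID1B Block13del, ZYX 0.21 in ARID1A CBR and 0.16 in ARID1B Block9del, ITGB1 0.16 in ARID1A DBDmut, ITGA3 0.26 in ARID1A DDX4 hybrid and 0.0295 in ARID1B A457_G461del, PARVA 0.11 in ARID1A DDX4 hybrid, 0.15 in ARID1A 42YS, 0.17 in ARID1B A457_G461del, 0.18 in ARID1B Block13del and 0.13 in ARID1B Block9del, ITGA7 0.48 in ARID1A 42YS, 0.26 in ARID1B WT, 0.41 in ARID1B A457_G461del and 0.38 in ARID1B Block13del, TLN2 -0.24 in ARID1A 42YS. With empty vector replicates 1 and 2 alone they became ITGAV -0.28 in ARID1A delIDR1, ITGAE -0.26 in ARID1A DBDmut, -0.23 in ARID1A AQGscram, -0.25 in ARID1B M2, -0.22 in ARID1B A457_G461del, -0.22 in ARID1B Block13del and -0.22 in ARID1B Block9del, FERMT2 -0.22 in ARID1A DDX4 hybrid, -0.13 in ARID1B WT and -0.22 in ARID1B A457_G461del. Under the replicate block they became ITGAV -0.28 in ARID1A delIDR1, ITGAE -0.26 in ARID1A DBDmut, -0.23 in ARID1A AQGscram, -0.25 in ARID1B M2, -0.22 in ARID1B A457_G461del, -0.22 in ARID1B Block13del and -0.22 in ARID1B Block9del, FERMT2 -0.22 in ARID1A DDX4 hybrid, -0.13 in ARID1B WT and -0.22 in ARID1B A457_G461del. With each construct's own empty vector pair they became ITGAV -0.28 in ARID1A delIDR1, 0.41 in ARID1A DDX4 hybrid over ARID1A WT and -0.53 in ARID1A WT over ARID1B WT, ITGAE -0.26 in ARID1A DBDmut, 0.37 in ARID1A DDX4 hybrid, 0.79 in ARID1A DDX4 hybrid over ARID1A WT and -0.59 in ARID1A WT over ARID1B WT, ITGA3 0.26 in ARID1A DDX4 hybrid, PARVA 0.11 in ARID1A DDX4 hybrid, 0.00279 in ARID1A DDX4 hybrid over ARID1A WT and -0.42 in ARID1A WT over ARID1B WT, ITGA7 0.26 in ARID1B WT and 0.67 in ARID1A DDX4 hybrid over ARID1A WT, FERMT2 0.30 in ARID1A DDX4 hybrid over ARID1A WT and -0.39 in ARID1A WT over ARID1B WT, TNS1 1.83 in ARID1A DDX4 hybrid over ARID1A WT, ZYX -0.40 in ARID1A WT over ARID1B WT.

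Over all 14220 genes the counts called, with their range over the other settings in brackets, were 6334 (2748 to 8718) in ARID1A WT, 7550 (3666 to 9849) in ARID1A CBR, 7127 (2839 to 9613) in ARID1A delIDR1, 4995 (1342 to 8392) in ARID1A DBDmut, 5616 (1426 to 8847) in ARID1A DDX4 hybrid, 3507 (3 to 8555) in ARID1A AQGscram, 4800 (722 to 8671) in ARID1A 42YS, 6129 (2140 to 9150) in ARID1B WT, 6722 (2655 to 9666) in ARID1B M2, 5545 (1587 to 9009) in ARID1B A457_G461del, 5587 (788 to 9032) in ARID1B Block13del, 5551 (838 to 9069) in ARID1B Block9del, 6756 (5981 to 9564) in ARID1A CBR over ARID1A WT, 5714 (5157 to 9311) in ARID1A delIDR1 over ARID1A WT, 799 (588 to 2723) in ARID1A DBDmut over ARID1A WT, 917 (602 to 5276) in ARID1A CBR over ARID1A delIDR1, 2035 (1659 to 6573) in ARID1B M2 over ARID1B WT, 2244 (935 to 5422) in ARID1A 42YS over ARID1A AQGscram, 779 (538 to 3058) in ARID1B A457_G461del over ARID1B Block13del, 1790 (1377 to 5402) in ARID1B A457_G461del over ARID1B Block9del, 67 (61 to 178) in ARID1B Block13del over ARID1B Block9del, 5185 (4271 to 8588) in ARID1A DDX4 hybrid over ARID1A WT, 1922 (1549 to 6326) in ARID1A WT over ARID1B WT, 5843 (5331 to 8367) in ARID1A delIDR1 over ARID1A DBDmut.

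The third strand set has no own empty vector pair, so its constructs have no such value against the empty vector, and comparisons between constructs have none with 1 empty vector pair alone. With 2 libraries per construct and 16.6 M to 27.9 M reads, genes near or under the filter limit of 0.454 CPM (ITGA1, ITGB6 and ITGB7, and ITGB3 and TNS1 in the empty vector) rest on few reads, and a difference in them can go undetected at this depth.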
